A study of Capra hircus with 20 samples.

Results

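The Notch genes described here are 3 receptors (NOTCH1, NOTCH2 and NOTCH3), 4 ligands (DLL1, DLL3, JAG1 and JAG2) and 3 targets of the pathway (HES1, HES5 and HEY1). They were found by matching these symbols to NCBI Gene IDs in the annotation of the goat genome ARS1.2. All 10 had values, out of 21071 genes in all. The samples were pieces of hypothalamus from 20 female Jining grey goats, with 5 goats and 5 libraries at each of 4 ages, 1 day (D1), 60 days (M2), 120 days (M4) and 180 days (M6). The study names no treatment of the goats, which were healthy, kept under shared feeding and management and slaughtered on the same day. The stages thus differ by age, by the individual goats and by the time of year of birth, which cannot be told apart from age. Expression was given as FPKM, the fragments of a gene per length of its exons and per mapped read depth of the library, which allows levels to be compared between genes.

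In Notch signaling, a ligand on one cell binds a receptor on its neighbour, the receptor is cut by proteases and its inner part moves to the nucleus. There it joins the DNA-binding protein RBPJ and switches on genes of the HES and HEY families, which encode repressors of transcription. In the brain the pathway is known for holding neural progenitors in an undifferentiated state, for astrocyte and oligodendrocyte development, and for its role in blood vessels. The hypothalamus is the part of the brain that controls puberty through the pituitary.

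By the annotation, NOTCH1 lies on chromosome 11 from 103349994 to 103395722, NOTCH2 on chromosome 3 from 97171972 to 97351176 and NOTCH3 on chromosome 7 from 100759288 to 100797619. DLL1 lies on chromosome 9 from 91362074 to 91371421, DLL3 on chromosome 18 from 50050331 to 50058063, JAG1 on chromosome 13 from 3735963 to 3771380 and JAG2 on chromosome 21 from 68916680 to 68930760. HES1 lies on chromosome 1 from 73098235 to 73100751, HES5 on chromosome 16 from 48830827 to 48835106 and HEY1 on chromosome 14 from 39088862 to 39092710. Each was a protein-coding gene, and no 2 of them were on the same chromosome. The annotated span of NOTCH2 overlaps that of LOC102175916 and the span of DLL1 overlaps that of LOC108636758. How reads in an overlap were assigned is not given in the sources used here.

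The tissue pieces differed in what they held. The summed FPKM of 8 hypothalamic marker genes ran from 0.854 to 906 over the 20 libraries. Its stage medians were 3.36 (D1), 9.43 (M2), 1.37 (M4) and 97.7 (M6). Of the 8 genes, GHRH was listed at 0 in 19 libraries, HCRT and OXT in 6 each and NKX2-1 in 4. OTP and PMCH were at 0 in 3 each, SIM1 in 1 and AVP in 0. The summed level of these markers of the labelled tissue was thus low in many libraries. The sum of 6 neuron markers was highest in M4 replicate 1 (2214) and D1 replicate 4 (1091), which had low sums of 5 myelin markers (113 and 250.2). The lowest neuron sums were in M6 replicate 3 (55.3) and M2 replicate 1 (130.4). M2 replicates 1 and 3 and M6 replicate 3 are also the 3 libraries with the lowest mapping rates by the study's own table. The FPKM of all genes summed to between 260199 and 377479 per library, and how many reads each value rests on is unknown. In whole tissue, fewer cells of a type and less RNA per cell cannot be told apart.

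All 3 receptors were listed above 0 in every library, and their order was the same throughout, with NOTCH2 above NOTCH1 and NOTCH1 above NOTCH3 in 20 of 20 libraries. Over the 20 libraries, the mean level was 11.1 FPKM for NOTCH2, 4.49 FPKM for NOTCH1 and 1.66 FPKM for NOTCH3. The first of these was also the highest mean among the 10 genes. Second was HEY1 at 6.33 FPKM, then came HES1 (4.24), JAG1 (4.17), DLL1 (2.65), JAG2 (1.94), HES5 (0.978) and DLL3 (0.333). Several neighbours in this order were not separated. HEY1 exceeded NOTCH1 in 10 of 20 libraries, NOTCH1 exceeded HES1 in 10, HES1 exceeded JAG1 in 11 and JAG2 exceeded NOTCH3 in 9. Among the ligands, DLL1 was above DLL3 in all 20 libraries, JAG1 above JAG2 in 19, JAG1 above DLL1 in 18 and DLL1 above JAG2 in 14. Among the targets, HES1 and HEY1 were above HES5 in all 20 libraries, and HEY1 was above HES1 in 15, but in only 2 of 5 at M6.

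NOTCH2 was at 8.49, 7.71, 6.93, 7.49 and 12.3 FPKM in D1 replicates 1 to 5, and at 14.1, 11.4, 13.8, 7.93 and 11.2 FPKM at M2. It was at 4.51, 8.47, 17.8, 17.7 and 11.1 FPKM at M4, and at 13.6, 8.87, 12.2, 14.1 and 12.1 FPKM at M6. The groups overlapped in each comparison of stages. The D1 mean was 8.57 ± 2.13 (SD, n = 5), followed by M2 with 11.7 ± 2.48, M4 with 11.9 ± 5.83 and M6 with 12.2 ± 2.03. The mean of the 3 later stages was 0.43 above D1 on the scale of log2(FPKM + 0.1), with a 95% confidence interval from -0.08 to 0.94 and an adjusted p of 0.497 by limma. NOTCH2 thus did not pass the threshold. This value fell to 0.094 with the mapping rate as a covariate and was -0.14 with the replicate block added.

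NOTCH1 was at 5.20, 3.31, 4.10, 2.84 and 4.33 FPKM at D1, and at 10.1, 4.06, 8.33, 2.79 and 4.97 FPKM at M2. It was at 1.28, 4.42, 7.79, 5.14 and 2.39 FPKM at M4, and at 3.56, 2.35, 3.00, 3.27 and 6.67 FPKM at M6. The D1 libraries lay close together, and the M2 and M4 libraries spread on both sides of them. Its log2 fold change from D1 to M2 was 0.48 (standard error 0.42, adjusted p = 0.600 by limma), and it was 0.075 for the later stages against D1 (interval -0.63 to 0.79). The 2 highest libraries were M2 replicates 1 and 3, and without the 3 libraries of lowest mapping rate the value from D1 to M2 was -0.013.

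NOTCH3, which in adult brain is best known from the mural cells of blood vessels, was at 1.74, 1.49, 1.25, 0.976 and 1.53 FPKM at D1. It reached 2.59 and 3.30 FPKM in M2 replicates 1 and 3 and was between 1.12 and 1.53 FPKM in the other 3 M2 libraries. At M4 it ranged from 0.449 to 2.95 FPKM and at M6 from 0.968 to 2.96 FPKM. The pattern over libraries was thus close to that of NOTCH1. From D1 to M2, NOTCH3 had a log2 fold change of 0.41 (standard error 0.43, adjusted p = 0.674 by limma), and one of -0.00744 without the 3 libraries of lowest mapping rate. The within-library log2 ratio of NOTCH3 to NOTCH1 was -1.43 ± 0.20 (SD, n = 5) at D1 and -1.35 ± 0.32 over the 15 later libraries. These differed by 0.086 (standard error 0.12), which was not past the threshold (exact two-sided permutation test, p = 0.590, adjusted p = 0.787 over the 4 ratios tested).

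**Figure D1:**
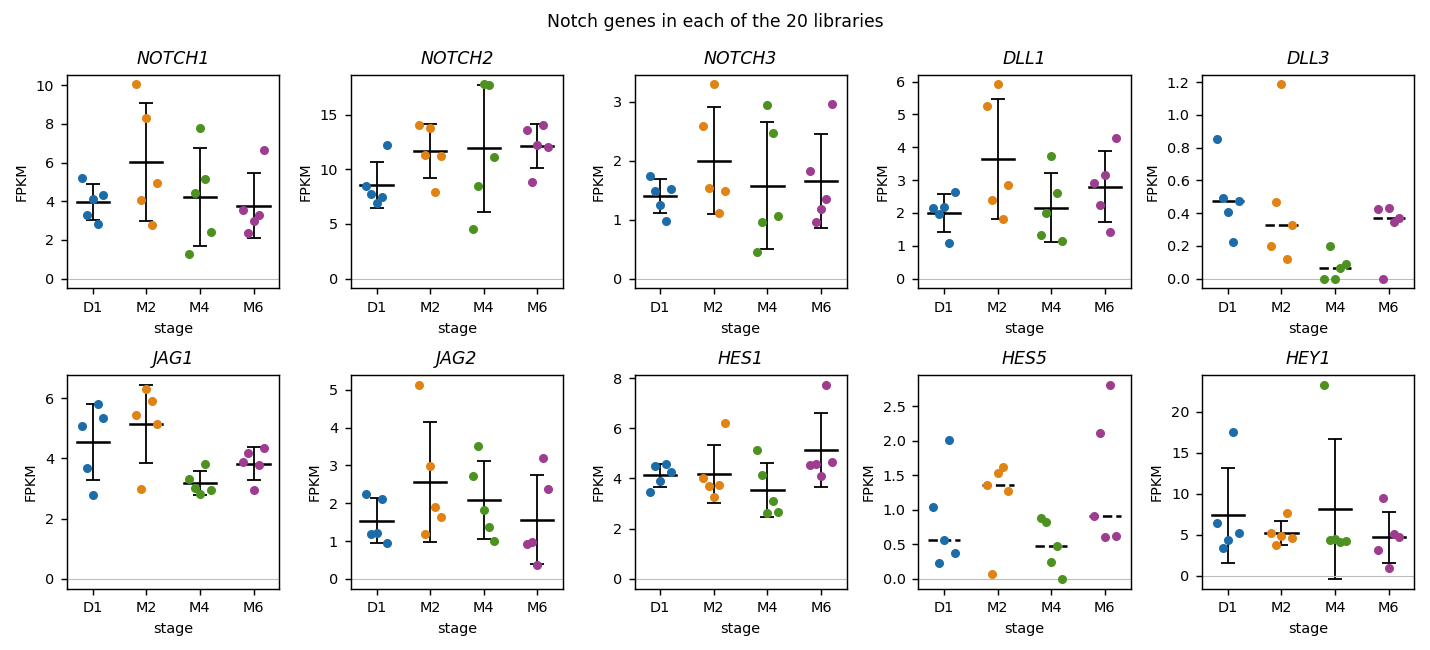
FPKM (vertical axis, from 0) of the 10 Notch genes in each of the 20 libraries (points), by stage (horizontal axis). Lines are group means and bars are ± SD (n = 5), except for DLL3 and HES5, which are listed at 0 in some libraries and have a dashed line at the group median. The M4 points of DLL3 all lie below its D1 points, and HEY1 has a single high point at D1 (17.5) and at M4 (23.3).

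DLL1 and DLL3 are ligands of the Delta family. DLL1 activates receptors on neighbouring cells, whereas DLL3 is a divergent member that does not activate them and is known as an inhibitor within its own cell. DLL1 was at 2.15, 1.97, 2.17, 1.07 and 2.63 FPKM at D1, and at 5.26, 2.39, 5.92, 1.80 and 2.86 FPKM at M2. It was at 1.31, 1.99, 3.72, 2.60 and 1.13 FPKM at M4, and at 2.91, 2.23, 3.14, 1.41 and 4.29 FPKM at M6. The 2 highest libraries were again M2 replicates 3 and 1. DLL1 had a log2 fold change of 0.75 from D1 to M2 (standard error 0.39, adjusted p = 0.351 by limma), the largest rise among the 10 genes in that comparison. It was 0.25 without the 3 libraries of lowest mapping rate and 0.035 with the mapping rate as a covariate.

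DLL3 was the lowest of the 10 genes, and the M4 libraries held its lowest levels. It was at 0.854, 0.491, 0.404, 0.221 and 0.472 FPKM at D1, and at 0.198, 0.467, 1.19, 0.116 and 0.330 FPKM at M2. At M4 it was listed at 0 in replicates 1 and 3 and was at 0.199, 0.0655 and 0.0895 FPKM in replicates 2, 4 and 5. At M6 it was at 0.426, 0.431, 0.345 and 0.367 FPKM in replicates 1, 3, 4 and 5 and was listed at 0 in replicate 2. The highest M4 library was thus below the lowest D1 library, and this was the only pair of stages in which the groups of any of the 10 genes did not overlap. Among all 16771 genes tested, 1.52% were lower at M4 than at D1 with no overlap between the groups.

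From D1 to M4, DLL3 changed by -1.82 on the log2 scale (standard error 0.54), with an unadjusted p of 0.00294 and an adjusted p of 0.296 by limma. DLL3 was therefore not called. The value was -1.55 in M4 vs. M2 (adjusted p = 0.508 by limma) and 1.19 in M6 vs. M4 (adjusted p = 0.700 by limma). Both comparisons use the same M4 libraries as the first. At levels this low, these values depend on the constant added before the logarithm. The fold change in M4 vs. D1 was -0.47 with 1 FPKM added and -3.39 with 0.01 FPKM added, and it stayed below 0 in each alternative. For the later stages together against D1 the log2 fold change was -0.91 (95% confidence interval -1.83 to 0.01, adjusted p = 0.429 by limma).

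Oligodendrocyte progenitor markers were also lower in several M4 libraries. Their summed FPKM (PDGFRA, CSPG4, OLIG1, OLIG2, SOX10 and GPR17, none listed at 0) ran from 55.6 to 192 at D1, from 87.5 to 153 at M2, from 42.9 to 104 at M4 and from 73.4 to 173 at M6. Where DLL3 was listed at 0, the sum was 42.9 in M4 replicate 1, 103.6 in M4 replicate 3 and 104.6 in M6 replicate 2. Spearman's rho of DLL3 with this sum was 0.66 over the 20 libraries. Pearson's r was 0.61 on the log2 scale, and 0.44 after the stage means were subtracted. Of the genes tested, 1.46% had a rho with this sum that high. DLL3 rose with each of the 6 markers in rank, with rho between 0.36 and 0.65. The relation was not particular to these markers. DLL3 also rose in rank with 5 of 5 myelin, 6 of 7 astrocyte and 6 of 7 endothelial markers. Its rho with these sums was 0.51, 0.50 and 0.41. The sum of 4 leptomeningeal markers (COL1A1, COL1A2, DCN and LUM) ran from 30.9 to 239.6 at D1, from 34.5 to 253 at M2, from 14.2 to 56.1 at M4 and from 25.9 to 80.0 at M6, and DLL3 rose in rank with all 4 (rho 0.66 with their sum). The medians at M4 and M6 were 93.1 and 104.6 for the progenitor sum and 32.1 and 28.5 for the leptomeningeal sum. For DLL3 they were 0.0655 and 0.367 FPKM. The part of these cells in the level of DLL3 was not tested.

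The Delta ligands were also compared as a ratio within each library. The log2 ratio of DLL3 to DLL1, each with 0.1 FPKM added, was -1.24, -1.81, -2.17, -1.86 and -2.26 in D1 replicates 1 to 5. It ran from -4.17 to -2.13 at M2, from -5.25 to -2.70 at M4 and from -4.54 to -1.76 at M6. The ranges overlapped between D1 and both M2 and M6, but not between D1 and M4. The mean was -1.87 ± 0.40 (SD, n = 5) at D1 and -3.18 ± 0.99 over the 15 later libraries, a difference of -1.31 (standard error 0.31). By the exact two-sided permutation test over the 15504 assignments of libraries, p was 0.010, and the adjusted p over the 4 ratios was 0.0400. This call did not hold with 1 FPKM added (difference -0.54, adjusted p = 0.0673) or with 0.01 FPKM added (difference -2.10, adjusted p = 0.124). It was also lost without any one of D1 replicates 1 to 5, M2 replicate 1, M4 replicates 1 and 4 or M6 replicate 2, with adjusted p between 0.0523 and 0.125, although the difference stayed between -1.42 and -1.16.

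JAG1 and JAG2 are the ligands of the Jagged family. JAG1 was at 5.07, 3.69, 2.79, 5.80 and 5.35 FPKM at D1, and at 5.44, 2.97, 6.29, 5.91 and 5.15 FPKM at M2. It was at 3.31, 3.01, 2.80, 3.81 and 2.96 FPKM at M4, and at 3.88, 4.16, 2.94, 3.78 and 4.36 FPKM at M6. All M2 libraries except replicate 2 were above all 5 M4 libraries, and M2 replicate 2 lay within their range. The log2 fold change of JAG1 in M4 vs. M2 was -0.64 (standard error 0.24, unadjusted p = 0.0138, adjusted p = 0.509 by limma), so JAG1 was not called. Its residual SD within stages was 0.33 on the log2 scale, against a median of 0.57 over all genes tested. The sum of 7 endothelial markers ran from 35.3 to 133 FPKM at M2 and from 30.4 to 50.3 at M4, and JAG1 rose in rank with 7 of 7 endothelial and 7 of 7 mural markers (rho 0.53 and 0.50 with their sums). None of these markers was listed at 0, and their part in the level of JAG1 was not tested.

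JAG2 was at 2.25, 1.18, 1.21, 2.11 and 0.935 FPKM at D1, and at 5.14, 1.18, 2.98, 1.89 and 1.64 FPKM at M2. It ranged from 1.01 to 3.53 FPKM at M4 and from 0.376 to 3.21 FPKM at M6. The highest level was 13.7 times the lowest, and the stages overlapped. From D1 to M2 its log2 fold change was 0.60 (standard error 0.49, adjusted p = 0.578 by limma), and 0.083 without the 3 libraries of lowest mapping rate. The log2 ratio of JAG2 to JAG1 was -1.53 ± 0.52 (SD, n = 5) at D1 and -1.12 ± 0.82 in the 15 later libraries, a difference of 0.41 with an exact permutation p of 0.310 (adjusted p = 0.620).

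HES1, HES5 and HEY1 encode basic helix-loop-helix repressors, and HES5 in particular is widely used as a readout of Notch activity in neural progenitors. HES1 was at 3.46, 4.48, 3.88, 4.56 and 4.24 FPKM at D1, and at 4.01, 3.71, 3.24, 3.74 and 6.19 FPKM at M2. It was at 5.13, 4.12, 2.64, 3.10 and 2.66 FPKM at M4, and at 4.54, 4.58, 4.10, 7.74 and 4.65 FPKM at M6. The D1 and M6 libraries were tight apart from M6 replicate 4. HES1 had the steadiest levels together with JAG1, with a residual SD of 0.33 on the log2 scale. Its log2 fold change for the later stages against D1 was 0.00, with a 95% confidence interval from -0.41 to 0.41 that leaves out a change of 1 in either direction. The largest difference between stages was 0.53 in M6 vs. M4 (unadjusted p = 0.0370, adjusted p = 0.700 by limma).

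HES5 varied more between libraries than 89.4% of the genes tested, with a residual SD of 1.21 on the log2 scale. It was at 1.05, 0.226, 0.566, 2.01 and 0.377 FPKM at D1, and at 1.36, 0.0683, 1.53, 1.62 and 1.27 FPKM at M2. It was at 0.875, 0.818, 0.237 and 0.470 FPKM in M4 replicates 1 to 4 and listed at 0 in replicate 5, and it was at 0.911, 2.11, 0.612, 2.82 and 0.621 FPKM at M6. The highest M4 library was below the higher libraries of the other stages, the lowest M6 library was above the lowest of the others, and all stages overlapped. The log2 fold change of HES5 in M6 vs. M4 was 1.52 (standard error 0.72, unadjusted p = 0.0469, adjusted p = 0.723 by limma). Against D1, the later stages differed by 0.12, with an interval from -1.10 to 1.34 that holds a rise or a fall of 1. The log2 ratio of HES5 to HES1 was -2.47 ± 1.09 (SD, n = 5) at D1 and -2.35 ± 1.12 in the 15 later libraries (exact permutation p = 0.837, the same after adjustment).

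HEY1 was at 6.41, 3.33, 4.32, 17.5 and 5.15 FPKM at D1, and at 5.24, 3.79, 4.87, 7.67 and 4.64 FPKM at M2. It was at 23.3, 4.38, 4.52, 4.11 and 4.20 FPKM at M4, and at 3.12, 9.48, 0.911, 5.10 and 4.69 FPKM at M6. The 2 highest libraries, M4 replicate 1 and D1 replicate 4, are the ones with the highest neuron marker sums, and the lowest, M6 replicate 3, has the lowest neuron marker sum. Over all 20 libraries HEY1 had a rho of only 0.27 with the neuron sum, and 27.5% of the genes tested had one that high. Pearson's r was 0.70 on the log2 scale, and 0.20 without the 2 libraries farthest from the median of HEY1. The log2 fold change of HEY1 for the later stages against D1 was -0.32 (95% confidence interval -1.26 to 0.61, adjusted p = 0.810 by limma), and it was 0.052 without D1 replicate 4. For M2 against D1 it was -0.25, and 0.12 without that library.

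**Figure D2:**
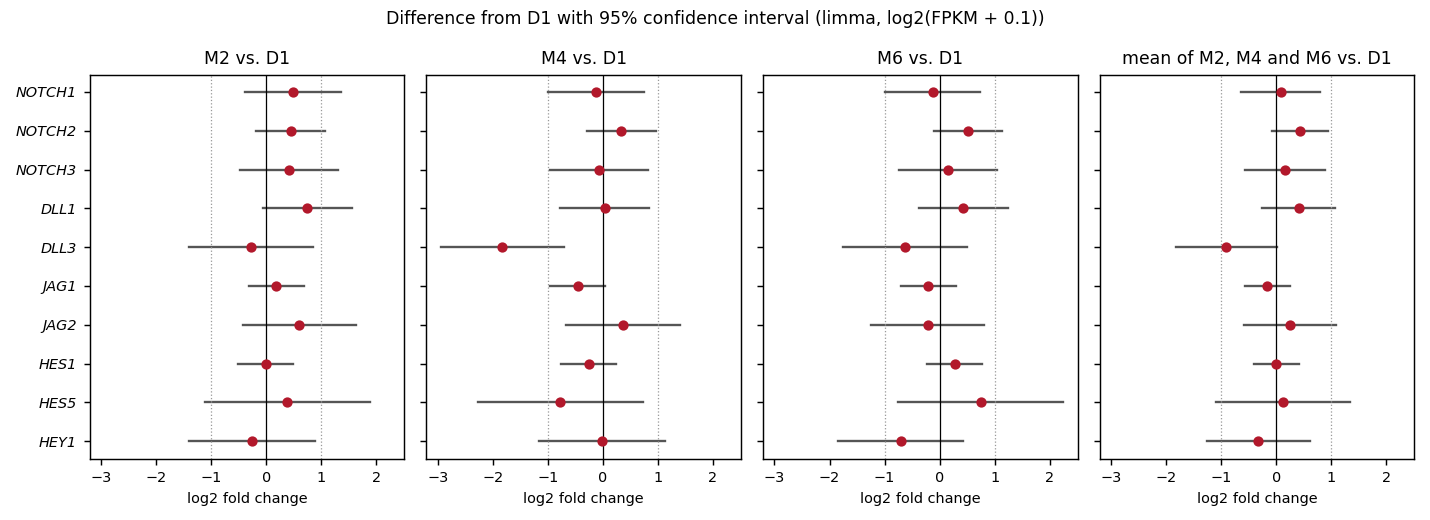
Log2 fold change (horizontal axis, from limma on log2(FPKM + 0.1)) of each Notch gene against D1 at M2, M4 and M6 and for the mean of these 3 stages. Points are estimates, bars are 95% confidence intervals from the 20 libraries and dotted lines mark a change of 1 in either direction. The intervals cross 0 apart from that of DLL3 in M4 vs. D1, at -1.82, whose adjusted p was 0.296.

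A gene was called where its adjusted p was under 0.05, by the Benjamini-Hochberg method over the 16771 genes tested, and its absolute log2 fold change was at least 1. All 10 Notch genes passed the filter, which asked for 0.1 FPKM or more in 5 or more libraries, and 0 of the 10 were called in any comparison by limma. The background was low throughout. The share of all tested genes called was 0% in M2 vs. D1, M4 vs. M2, M6 vs. M4 and M6 vs. M2, 0.0537% for M4 and 0.00596% for M6 against D1, and 0.0596% for the later stages against D1. In the F test over the 4 stages 0.00596% of genes had an adjusted p under 0.05, and 0 of the 10 did. By the same limma F test, DLL3 alone of the 10 was under 0.05 before adjustment (adjusted p = 0.410), as were 10.4% of all genes.

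At an unadjusted p under 0.05 the Notch genes gave no count in M2 vs. D1, where 15.6% of all genes tested did. They likewise gave 0 of 10 in M6 vs. D1 (7.41% of all genes), in M6 vs. M2 (6.14%) and for the later stages against D1 (11.7%). In M4 vs. D1 the count was 1, DLL3, which was lower, as were 6.21% of all genes. In M4 vs. M2 it was 2, DLL3 and JAG1, both lower at M4, against 4.72% of all genes. In M6 vs. M4 it was 3, DLL3, HES1 and HES5, all higher at M6, against 3.99% of all genes. These last 3 comparisons share the M4 libraries. The median log2 fold change of the 10 genes was 0.40 from D1 to M2, -0.55 from M2 to M4 and 0.24 from M4 to M6, while the median over all genes tested was -0.07, -0.02 and 0.04. In M4 vs. M2, 9 of the 10 genes were below 0, HEY1 being the exception, against 51.7% of all genes tested. The M4 libraries of HEY1 include replicate 1 at 23.3 FPKM, and its medians were 4.87 FPKM at M2 and 4.38 FPKM at M4. Several of the 10 moved together over the libraries, so they are not separate observations. At M2, NOTCH1, NOTCH3, DLL1 and JAG2 were highest in replicates 1 and 3, which are among the 3 libraries of lowest mapping rate.

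Over the single libraries the Notch genes fell into groups. Among the 45 pairs of these genes, Spearman's rho over the 20 libraries ran from -0.35 to 0.82 with a median of 0.15, and 10 pairs were above 0.5. The 3 receptors and DLL1 formed one group. NOTCH1 and NOTCH3 had a rho of 0.82 (Pearson's r 0.91 on the log2 scale), and 0.203% of the genes tested had a rho with NOTCH1 that high. The rho was 0.77 for NOTCH3 and DLL1, 0.73 for NOTCH1 and DLL1, 0.71 for NOTCH2 and NOTCH3, 0.68 for NOTCH2 and DLL1 and 0.57 for NOTCH1 and NOTCH2. After the stage means were subtracted, Pearson's r of NOTCH1 and NOTCH3 was 0.92 and that of NOTCH1 and DLL1 was 0.84. These pairs share libraries and are given as a description.

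JAG1, HES5 and HEY1 formed the other group, and JAG2 was less clearly part of it. The rho was 0.65 for HES5 and HEY1, 0.63 for JAG1 and HES5, 0.58 for JAG1 and HEY1, 0.51 for JAG2 and HEY1, 0.45 for JAG2 and HES5 and 0.32 for JAG1 and JAG2. HES1 was closest to HES5 (0.48). Of the genes tested, 9.53%, 13.3% and 24.5% had a rho with JAG2 at or above that of HEY1, HES5 and JAG1. Between the groups, JAG2 had a rho of 0.39 with NOTCH1, above its 0.32 with JAG1. The other values between the groups were lower. The targets HES1, HES5 and HEY1 had a rho between -0.35 and -0.05 with each of the 3 receptors, which is weak and no finding on its own. DLL3 had no rho above 0.39 with any of the other 9 genes.

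**Figure D3:**
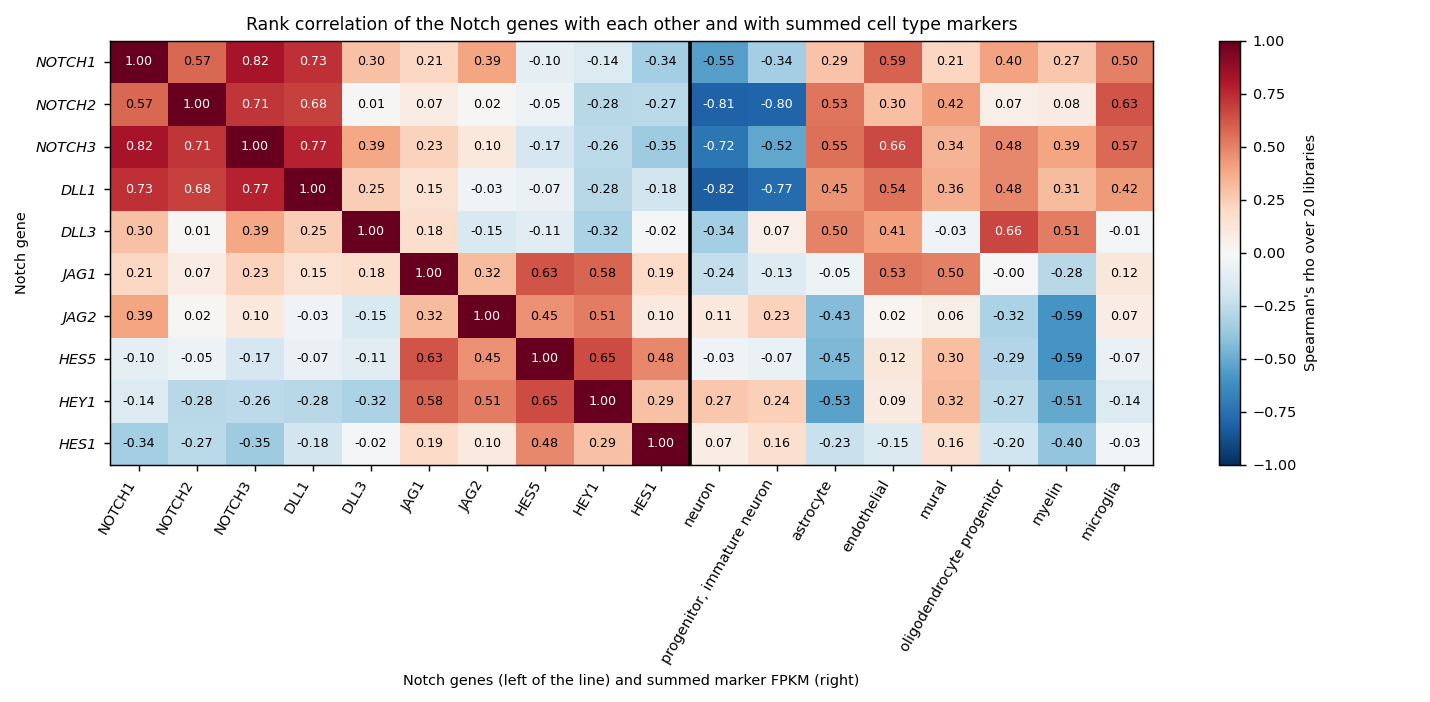
Spearman's rho over the 20 libraries (color scale and printed values, from -1 to 1) between the 10 Notch genes (left of the black line) and between each of them and the summed FPKM of marker gene lists (right of the line). NOTCH1, NOTCH2, NOTCH3 and DLL1 form a block of values between 0.57 and 0.82 at the upper left and fall with the neuron markers. JAG2, HES5 and HEY1 fall with the myelin markers (rho -0.59, -0.59 and -0.51), and HES1 and JAG1 do so less (-0.40 and -0.28).

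Cell type markers were set beside both groups of genes. The sum of 6 neuron markers (RBFOX3, SNAP25, SYT1, SLC17A6, SLC32A1 and GAD1, none listed at 0) ranged from 537 to 1091 FPKM at D1, from 130.4 to 867 at M2, from 600.3 to 2214 at M4 and from 55.3 to 736 at M6. DLL1 had a rho of -0.82 with this sum, and 0.233% of the genes tested were as low or lower. The rho was -0.81 for NOTCH2 (0.352% of genes), -0.72 for NOTCH3 (1.61%) and -0.55 for NOTCH1 (7.72%). DLL1 and NOTCH2 fell in rank with each of the 6 neuron markers, and NOTCH3 and NOTCH1 with 4 of 6. Leaving out the 2 libraries farthest from the median of the neuron sum gave a rho of -0.79 for DLL1 and -0.83 for NOTCH2. Pearson's r on the log2 scale was -0.63 for DLL1, -0.56 for NOTCH2, -0.45 for NOTCH3 and -0.46 for NOTCH1. In the same order it was -0.76, -0.81, -0.88 and -0.80 without the 2 libraries farthest in the neuron sum. Without the 2 farthest in the Notch gene itself it was -0.54, -0.40, -0.27 and -0.09. SNAP25 made up 67.1% of the neuron sum. NOTCH2 and NOTCH3 also rose with the sum of 7 astrocyte markers (rho 0.53 and 0.55, and 0.37 and 0.39 without the 2 farthest libraries). DLL1 and NOTCH1 had a rho of 0.45 and 0.29 with it. With the sum of 7 endothelial markers the rho was 0.66 for NOTCH3, 0.59 for NOTCH1, 0.54 for DLL1 and 0.30 for NOTCH2. Of the genes tested, 0.823%, 1.95%, 3.05% and 17.8% had one that high. NOTCH3, NOTCH1 and DLL1 rose in rank with 7 of 7 endothelial markers and NOTCH2 with 6 of 7. NOTCH3 had a rho of 0.34 with the sum of 7 mural markers. With the sum of 5 microglia markers the rho was 0.63 for NOTCH2, 0.57 for NOTCH3, 0.50 for NOTCH1 and 0.42 for DLL1, and each of these genes rose in rank with 5 of 5 markers. Without the 2 farthest libraries these values were 0.51, 0.45, 0.32 and 0.27.

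With the sum of 5 myelin markers (MOG, MAG, MOBP, CNP and CLDN11, none listed at 0), the rho was -0.59 for JAG2, -0.59 for HES5 and -0.51 for HEY1, with Pearson's r of -0.58, -0.48 and -0.61 on the log2 scale. Of all genes tested, 3.61%, 3.45% and 6.79% had a rho as low or lower. All 3 genes fell in rank with each of the 5 markers. So did HES1 and JAG1, with a rho of -0.40 and -0.28 with the sum (14.1% and 24.3% of genes as low or lower). Leaving out the 2 libraries farthest from the median of the myelin sum gave a rho of -0.48 for JAG2, -0.57 for HES5, -0.42 for HEY1, -0.19 for HES1 and -0.44 for JAG1. After the stage means were subtracted, Pearson's r with this sum was -0.61 for JAG2, -0.66 for HES5, -0.71 for HEY1, -0.69 for HES1 and -0.29 for JAG1. With the astrocyte sum, the rho was -0.43 for JAG2, -0.45 for HES5 and -0.53 for HEY1, opposite in sign to the receptors. GFAP and S100B made up 43.3% and 38.9% of that sum. In rank, JAG2 and HEY1 fell with 6 of 7 astrocyte markers and HES5 with 5 of 7, and each receptor rose with 6 of 7. The rho of HEY1 with single astrocyte markers ran from -0.62 to 0.71. The myelin sum ranged from 250.2 to 3637 FPKM at D1, from 559 to 1581 at M2, from 113 to 2108 at M4 and from 168 to 2687 at M6. Whether the makeup of the tissue pieces sets these relations was not tested. With the neuron and myelin sums as covariates in limma, 0 of the 10 genes were called.

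**Figure D4:**
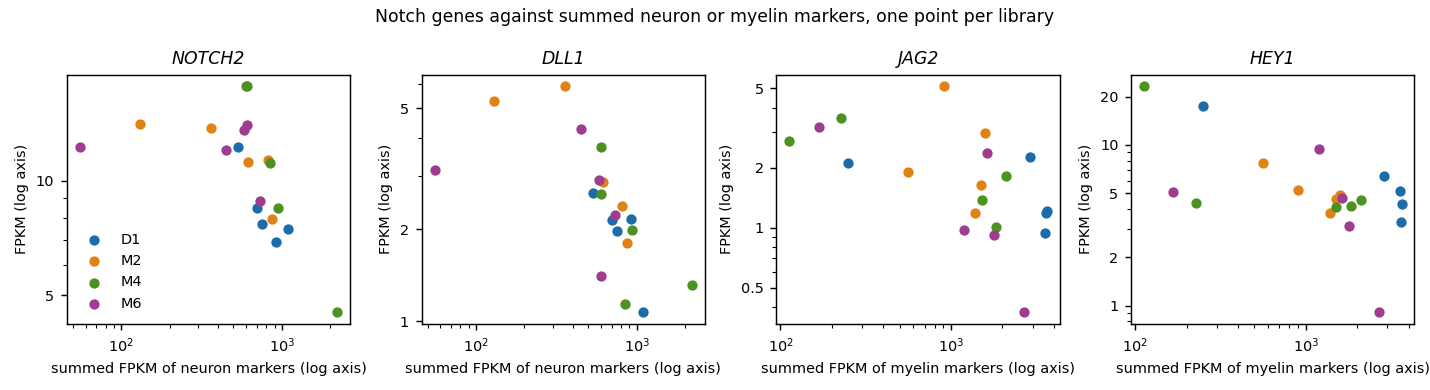
FPKM of NOTCH2 and DLL1 against the summed FPKM of neuron markers, and of JAG2 and HEY1 against the summed FPKM of myelin markers. Both axes are logarithmic, each point is 1 of the 20 libraries and colors mark the stage. NOTCH2 and DLL1 fall with the neuron sum (rho -0.81 and -0.82), and JAG2 and HEY1 fall with the myelin sum (rho -0.59 and -0.51).

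The genes most like each Notch gene over the 20 libraries were searched by Spearman's rho among the 13059 tested genes whose median reached 1 FPKM. JAG2 had the closest match, SGSM2 (rho 0.94), followed by LOC102188023 (0.93). NOTCH2 was closest to C28H10orf11 and PARD3 (both 0.92), DLL1 to TJAP1 and GTPBP6 (both 0.92), NOTCH1 to CTNND1 and TSC2 (both 0.91) and NOTCH3 to ZNF395 (0.91) and SLCO2B1 (0.90). DLL3 was closest to LEMD2 (0.86) and GLIPR2 (0.83), HES5 to MMP17 (0.84) and EDC3 (0.81), JAG1 to SCARA5 and FBLN2 (both 0.83) and HEY1 to SSBP4 and C29H11orf95 (both 0.83). HES1 had the weakest best matches, MAX and SAMD15 (both 0.73). None of the 10 Notch genes was among the 2 closest genes of another.

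Of 57 other genes of the pathway, 56 had values and 55 passed the filter. By limma 0 of the 55 were called in any stage comparison. From D1 to M2, 8 of them reached an unadjusted p under 0.05, which is 14.5% against 15.6% of all genes tested. Of these, 2 had higher values at M2 (MFNG and MAML3, against 6.25% of all genes) and 6 had lower values (APH1A, SNW1, CIR1, HDAC2, MIB1 and ITCH, against 9.35%). Those of them not named further were listed after their values were seen. By role, the counts were 0 of 6 other receptors and ligands, 1 of 9 genes of receptor cleavage, 1 of 5 of receptor glycosylation, 4 of 18 of the nuclear complex and co-repressors, 2 of 11 of ligand and receptor turnover and 0 of 6 other targets. The 55 genes had a median log2 fold change of 0.019 from D1 to M2, with role medians between -0.32 (receptor cleavage) and 0.29 (receptor glycosylation).

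MFNG, an enzyme that adds sugars to Notch receptors and so alters which ligands they answer to, went from a D1 mean of 1.03 ± 0.607 FPKM (SD, n = 5) to 3.38 ± 1.63 (M2), then 1.88 ± 0.900 (M4) and 1.24 ± 0.623 (M6). Each M2 library was above each D1 library (lowest 2.04, highest 1.90), and the log2 fold change between these stages was 1.69 (standard error 0.50, unadjusted p = 0.00297, adjusted p = 0.158 by limma). In M2 vs. D1, 1.5% of all genes tested were higher at M2 with no overlap. LFNG, the related enzyme with the highest level among the glycosylation genes (10.3 FPKM), had a log2 fold change of 0.29 (adjusted p = 0.689 by limma). HDAC2, a histone deacetylase that works in co-repressor complexes, was at 42.4 ± 7.36 FPKM at D1 and 25.0 ± 5.75 at M2. Its log2 fold change was -0.77 (standard error 0.20, adjusted p = 0.142 by limma), with the M2 libraries (highest 31.8) below the D1 libraries (lowest 34.8). In M2 vs. D1, 2.32% of all genes tested were lower without overlap.

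Among the other roles, the smallest p in the turnover genes was that of MIB1, the ligase that lets ligands be taken up, with a log2 fold change of -0.39 from D1 to M2 (unadjusted p = 0.0130, adjusted p = 0.221 by limma). CNTN1, a neuronal adhesion protein and proposed Notch ligand, was the most abundant of the other receptors and ligands at 168 FPKM and had an unadjusted p of 0.0402 in M6 vs. D1 (adjusted p = 0.643 by limma). In receptor cleavage the most abundant gene was PSENEN (74.2 FPKM) and the smallest p was that of APH1B (0.00480 in M6 vs. M2), both parts of gamma-secretase. KAT2B (70.6 FPKM) led the nuclear complex, ITCH (30.2 FPKM) the turnover genes and HEY2 (6.34 FPKM) the other targets, where NRARP had the smallest p (0.0164 in M4 vs. M2). RBPJ, the DNA-binding partner of the receptors, had a mean of 20.8 FPKM and a log2 fold change of 0.030 between D1 and M2 (adjusted p = 0.970 by limma).

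**Figure D5:**
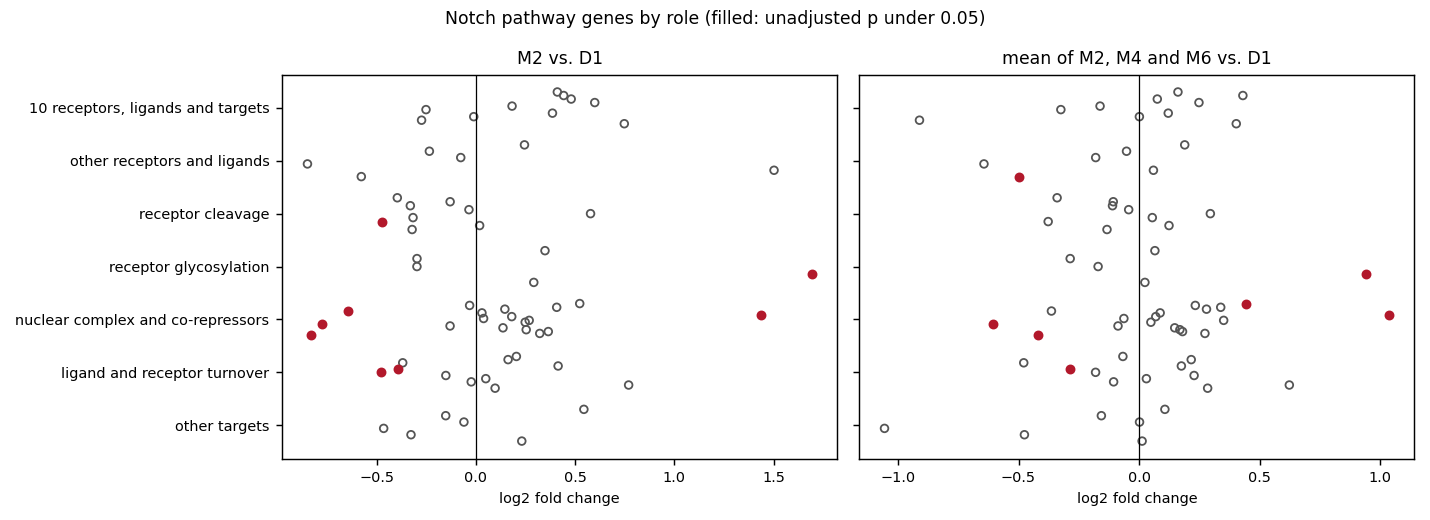
Log2 fold change (horizontal axis, limma) of the 10 Notch genes and of the 55 other pathway genes tested, grouped by role, in M2 vs. D1 (left) and for the mean of M2, M4 and M6 against D1 (right). Each circle is a gene and filled circles have an unadjusted p under 0.05. In M2 vs. D1, 8 of the 55 are filled and 0 of the 10, and none has an adjusted p under 0.05.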

How the data were processed

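RNA of 20 hypothalamus samples was sequenced as strand-specific libraries depleted of rRNA. The authors trimmed the reads, aligned them to the goat genome ARS1.2 with HISAT2 2.0.5, assembled transcripts with StringTie 1.3.3b and deposited FPKM per gene. FPKM is relative to the mapped reads of a library, so a few abundant genes can shift the others, and reads behind each value were not recovered. Groups and replicates came from the sample titles, and no column was left unmapped (0).

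Genes that reached 0.1 FPKM in 5 or more libraries (16771 of 21071) were fitted as log2(FPKM + 0.1) with limma 3.58.1 in R 4.3.3, with 4 stages, no block and a variance trend. On this scale, a low gene shows a smaller fold than its FPKM would. P values were adjusted by Benjamini-Hochberg over all genes tested. Ratios within libraries were compared by exact permutation tests, adjusted over 4. Python 3.11.15, pandas 2.3.3, numpy 2.4.6, scipy 1.17.1 and matplotlib 3.10.9 were used.

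The Notch genes, gene lists and tests were chosen with earlier results of these data known. Besides the 10 Notch genes, the rule named in each pathway list the gene with the highest mean and the one with the smallest p, and for each Notch gene the 2 genes of highest rho. RBPJ and the genes behind small counts were added after their values were seen. Symbols came from the RefSeq annotation of ARS1.2, and TLE1 was not matched. A few marker and pathway genes are not reported here and were left out of the sums and counts, and so was the telencephalic list. Alternatives were other scalings, pseudocounts and filters, only the 2 groups compared, no trend, library weights, the replicate block, the mapping rate of the study's table, leaving out its 3 lowest libraries, a call by adjusted p only, and each library left out in turn. Marker sums as covariates were added after seeing the data, and so was the smallest-p comparison of each Notch gene. No sequence was printed, since the tables used here held none.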

Additional observations from a re-analysis of the deposited data

Results flagged for a closer look

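In 7 of the 56 groups of 5 libraries examined (each gene or ratio at each stage), a single library stood apart from the other 4 by more than Dixon's 95% critical value. For normal values in separate groups, that value is passed in about 1 in 20. FPKM values are bounded at 0 and these groups share libraries, so that rate gives no measure of an excess here. HEY1 was at 17.5 FPKM in D1 replicate 4 against 3.33 to 6.41 in the other D1 libraries, and at 23.3 FPKM in M4 replicate 1 against 4.11 to 4.52. HES1 was at 7.74 FPKM in M6 replicate 4 against 4.10 to 4.65, and at 6.19 FPKM in M2 replicate 5 against 3.24 to 4.01. NOTCH1 was at 6.67 FPKM in M6 replicate 5 against 2.35 to 3.56. HES5 was at 0.0683 FPKM in M2 replicate 2 against 1.27 to 1.62. DLL3 was listed at 0 FPKM in M6 replicate 2 against 0.345 to 0.431.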

How the results depend on the processing

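None of the 10 Notch genes was called in any comparison under any of the 34 other settings. The smallest adjusted p of any of them was 0.0765 by limma, for DLL3 in the later stages against D1 with library quality weights. Of the 1002 alternative values of their 30 log2 fold changes, 950 kept their direction. The cause of each change below was not tested.

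Counts of genes called over the whole table moved as follows. In M2 vs. D1 the count of 0 became 2 with a pseudocount of 1 FPKM, 1 without a filter, with only the 2 groups compared, without a variance trend or without the 3 libraries of lowest mapping rate, 148 with library weights and 4 with marker covariates. In M4 vs. M2 it became 1 with a pseudocount of 1 FPKM, and in M6 vs. M2 it became 1 with that pseudocount or the mapping rate and 2 with marker covariates. In M4 vs. D1 the count of 9 became 5 with quantile normalization or median-ratio scaling, 0 with only the 2 groups compared, 65 with weights, 3 with the mapping rate and 116 with marker covariates. In M6 vs. D1 the count of 1 became 2 with median-ratio scaling or no filter, 0 with either other pseudocount, a mean of at least 1 FPKM, only the 2 groups, the mapping rate or without the 3 libraries, 3 without a trend, 95 with weights and 52 with marker covariates. For the later stages the count of 10 became 3 with quantile normalization, 1 with median-ratio scaling, 6 without a trend, 223 with weights, 0 with the mapping rate and 75 with marker covariates. In the F test the count of 1 became 0 with median-ratio scaling, a pseudocount of 0.01 FPKM, a mean of at least 1 FPKM or the mapping rate, 4 with a pseudocount of 1 FPKM, 2 without a filter or trend, 170 with weights, 57 with marker covariates and 3 without the 3 libraries.

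Leaving out each library in turn gave counts from 0 to 10 in M2 vs. D1, 0 to 3 in M4 vs. M2, 0 to 1 in M6 vs. M2, 4 to 32 in M4 vs. D1, 0 to 20 in M6 vs. D1, 1 to 35 for the later stages and 0 to 17 in the F test. The highest counts came without D1 replicate 4, or without M2 replicate 5 where the comparison does not use D1. The ratio of DLL3 to DLL1 ranged from -1.42 to -1.16 and that of HES5 to HES1 from -0.22 to 0.45. Log2 fold changes against D1 ranged from -0.16 to 0.069 for HES1 at M2 and from -0.058 to 0.039 later, from -0.18 to 0.49 for HES5 later, from -0.46 to 0.12 for HEY1 at M2 and from -0.54 to 0.052 later, and from -0.033 to 0.19 for NOTCH1 later.

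Directions turned as follows. With the mapping rate as a covariate, M2 vs. D1 became -0.16 for NOTCH1, -0.12 for NOTCH3, 0.37 for HES1 and 0.61 for HEY1, and the later stages against D1 became -0.44 for NOTCH1, -0.26 for NOTCH3, -0.16 for DLL1 and 0.36 for HEY1. Without the 3 libraries of lowest mapping rate, M2 vs. D1 became -0.013 for NOTCH1, -0.00744 for NOTCH3, 0.10 for HES1 and -0.042 for HES5, the later value of NOTCH1 became -0.070, JAG2 in M6 vs. M2 became 0.070 and the ratio of HES5 to HES1 became -0.045. With marker covariates the later values became -0.17 for JAG2, -0.13 for HES1 and -0.61 for HES5, and HES5 in M2 vs. D1 became -0.24. With weights NOTCH1 became -0.051 later and HES1 became 0.27 at M2. HES1 became -0.039 later with quantile normalization and 0.055 at M2 with median-ratio scaling. With a pseudocount of 0.01 FPKM, HES5 became -0.073 later and its ratio to HES1 -0.073. The ratio of DLL3 to DLL1 lost its call with a pseudocount of 1 FPKM (-0.54) or 0.01 FPKM (-2.10).

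The replicate numbers did not pair the samples. Correlations of the deviations from the group means had a median of -0.01 over 30 same-numbered pairs, with 7 over 0.1, and of 0.00 over 120 others, with 37 over 0.1. With the replicate block, 7 genes were called in M4 vs. D1, 13 for the later stages and 0 in M6 vs. D1 and in the F test. With the replicate block and the mapping rate together, the count was 0 for the later stages, in the F test and at M4 or M6 against D1. There M2 vs. D1 became -0.31 for NOTCH1, -0.28 for NOTCH2, -0.25 for NOTCH3, -0.12 for JAG1, 0.37 for HES1 and 0.57 for HEY1, and the later stages became -0.56 for NOTCH1, -0.14 for NOTCH2, -0.37 for NOTCH3, -0.12 for DLL1 and 0.33 for HEY1.

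The depth behind each value is unknown, so no counting error is given, and values of DLL3 and HES5 listed at 0 cannot be told apart from failed estimates. With 5 goats per stage, the 95% intervals of DLL1, DLL3, JAG2, HES5 and HEY1 for the later stages reach past 1 on the log2 scale, and a change that large is within the error.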
